A study of Rattus norvegicus with 9 samples.

Results

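The genes described here are C1qa, C1qb, C1qc, C1r, C1s, C3 and Serping1, 7 genes of the complement system. They were chosen by symbol from the gene symbol column of the deposited table, with the rows of each symbol summed. All 7 were present among 12609 symbols, and all 7 passed the filter on low values and were among the 10180 genes tested. Each encodes a part of the C1 complex, its inhibitor or the protein that the pathway cleaves. None is particular to the lectin pathway, whose own recognition proteins and proteases are described further below.

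The 9 libraries came from rat brain, 3 per group. In the IR+NMN group the middle cerebral artery was occluded (MCAO, a rat model of ischemic stroke), and nicotinamide mononucleotide (NMN), from which cells make the coenzyme NAD, was injected at 100 mg/kg in saline. IR libraries came from rats with the occlusion, and Sham libraries from rats with surgery but no occlusion. Both carry phosphate-buffered saline as their treatment label. The sources used here do not give strain, sex, age, brain region, or when tissue was taken and NMN injected. The labels also leave unsaid whether every library is from its own animal. The p-values therefore reflect the spread among these libraries alone, which may be technical. The title of the series places the comparisons in brain injury by ischemia and reperfusion and its change with NMN.

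Complement is a cascade of blood and tissue proteins that marks cells and debris for removal. In the classical pathway the recognition protein C1q, built from A, B and C chains, binds a surface and activates the proteases C1r and C1s. These lead on to the cleavage of C3, whose fragments coat the surface and are read by receptors on phagocytes. Serping1 is the C1 inhibitor, which inactivates C1r and C1s and also the proteases of the lectin pathway. In the brain, C1q is known to be made mainly by microglia, whereas C3 is known as a gene of reactive astrocytes and phagocytes.

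The 3 C1q chain genes rose in IR against Sham, by 2.05 to 2.14 times in mean TPM, and did not pass between IR+NMN and IR. C1r, C1s, C3 and Serping1 did not pass between IR and Sham and rose in IR+NMN against IR, by 2.53 to 5.19 times in mean TPM. Against Sham, all 7 were higher in IR+NMN. TPM (transcripts per 1000000) is a length-scaled share of the transcripts of a library, meant for setting levels side by side between genes. How fully the processing captured the reads of each gene is unknown, which limits such comparisons here.

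**Figure D1:**
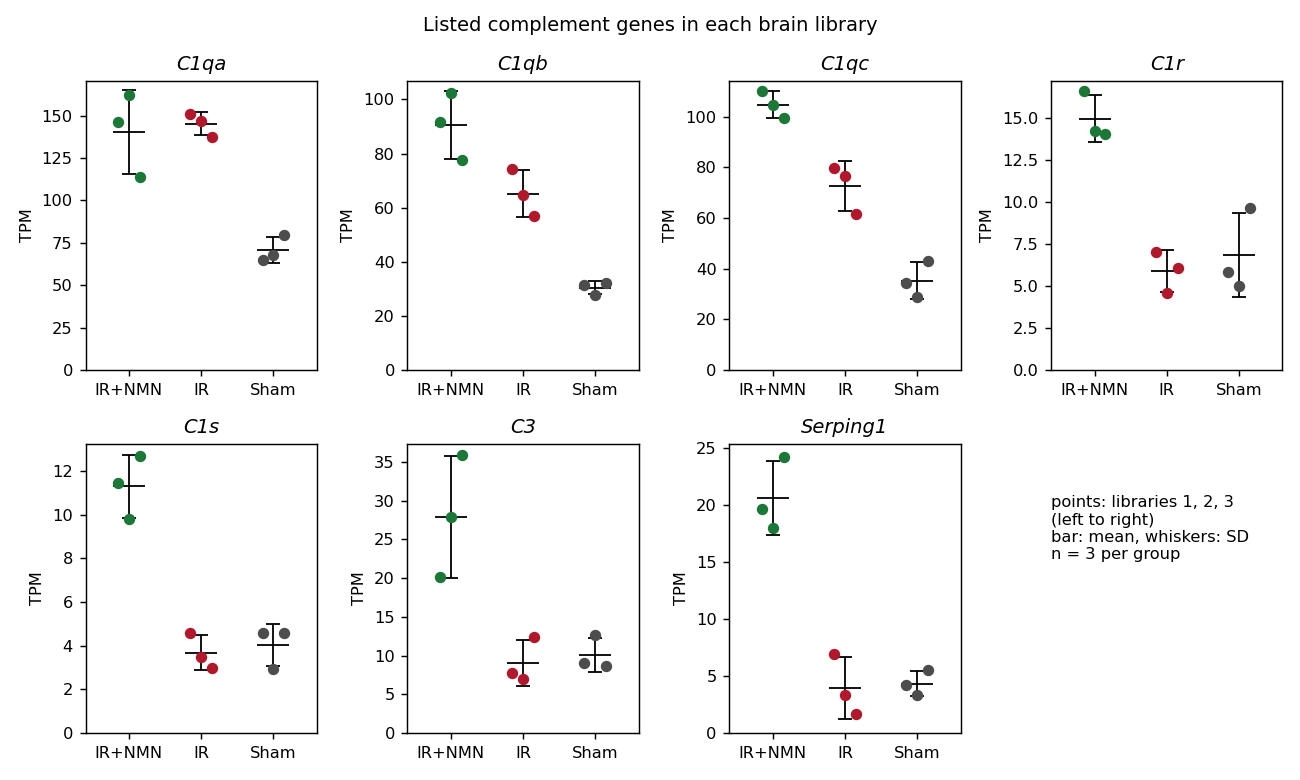
TPM of each listed complement gene (y axis, from 0) in the 9 libraries, by group (x axis). Points are libraries and bars are means with SD (n = 3). For the C1q chain genes IR lies above Sham without overlap, whereas for C1r, C1s, C3 and Serping1 the IR and Sham points overlap and the IR+NMN points lie above both.

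C1qa, the A chain, was the most abundant of the 7 genes. It stood at 146, 162 and 114 TPM in IR+NMN, 151, 147 and 138 TPM in IR, and 65.2, 67.7 and 79.7 TPM in Sham. All IR and IR+NMN libraries lay above all Sham libraries, while IR+NMN spanned the range of IR. C1qa averaged 145 ± 6.79 TPM in IR and 70.8 ± 7.76 TPM in Sham (SD, n = 3 each), a log2 change of TPM + 1 of 1.03 (SE 0.15, limma adjusted p = 0.00939). Its mean TPM exceeded that of 90.2% of the tested genes in IR+NMN, 90.6% in IR and 80.0% in Sham.

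C1qb, the B chain, had 91.9, 102 and 77.5 TPM in IR+NMN libraries, 74.4, 64.5 and 56.9 TPM in IR libraries and 31.6, 27.7 and 32.2 TPM in Sham libraries. C1qc, the C chain, had 109.9, 105 and 99.5 TPM in IR+NMN, 79.9, 76.7 and 61.5 TPM in IR, and 34.3, 28.7 and 43.0 TPM in Sham. For both genes the 3 groups did not overlap, in the order IR+NMN, IR, Sham from high to low. The step from IR to IR+NMN was called for neither. Of all tested genes, 13.7% had every IR+NMN library above every IR library, and the share with this order of all 3 groups was not counted. Between IR and Sham C1qb changed by 1.07 (SE 0.14, limma adjusted p = 0.00767) and C1qc by 1.03 (SE 0.16, limma adjusted p = 0.0133) on the log2 scale.

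These 3 rises stand against a background in which 6.39% of the 10180 tested genes were called in IR against Sham, 1.14% higher and 5.26% lower, and 7.58% had all IR libraries above all Sham libraries. The median log2 change of the 7 listed genes was -0.098 and that of all genes -0.21. C1qb kept its call without any single library (limma adjusted p up to 0.0451). C1qa and C1qc lost theirs without Sham 2 or IR 2 (limma adjusted p up to 0.0545 and 0.0695), so that without either library 1 of the 7 genes was called in place of 3.

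The 250 bases before the annotated start of C1qa and C1qb are shown because these chains rose together. The RefSeq gene table lists C1qb, C1qc and C1qa next to each other on rat chromosome 5. The windows are from RefSeq build GRCr8 at chr5:154419934-154420183 for C1qa and chr5:154407828-154408077 for C1qb, both on the minus strand and printed 5′ to 3′. Capitals mark matches, on either strand, to the Maf half-site TGCTGA, the STAT pattern TTCNNNGAA, the PU.1 core AGGAAGT, the C/EBP pattern TTGCNNAA or the interferon response element, of which these windows held none.
C1qa: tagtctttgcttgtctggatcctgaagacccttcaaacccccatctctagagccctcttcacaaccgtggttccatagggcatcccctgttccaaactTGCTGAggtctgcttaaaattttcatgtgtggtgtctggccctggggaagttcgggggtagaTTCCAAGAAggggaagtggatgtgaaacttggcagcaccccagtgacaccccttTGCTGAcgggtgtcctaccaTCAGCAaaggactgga
C1qb: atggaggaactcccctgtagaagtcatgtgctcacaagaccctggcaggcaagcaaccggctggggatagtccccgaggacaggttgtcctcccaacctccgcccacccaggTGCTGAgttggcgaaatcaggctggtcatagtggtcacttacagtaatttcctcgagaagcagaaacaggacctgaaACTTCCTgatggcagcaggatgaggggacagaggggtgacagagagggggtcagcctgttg
C1qa had 3 matches to the Maf half-site, of which the nearest to the start ended 11 bases before it, and 1 to the STAT pattern. C1qb had 1 match to the Maf half-site and 1 to the PU.1 core, which lay on the opposite strand 61 to 55 bases before the start. No marked match overlapped another. Of 33469 rat promoter windows of this length, 15.1% held the Maf half-site, 7.67% the STAT pattern, 7.08% the PU.1 core, 9.22% the C/EBP pattern and 3.41% the interferon response element. A match describes letters only.

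Each C1q chain gene had several rows in the table, and the rows of C1qb did not change alike. Its row 3 held 28.3, 34.9 and 28.9 TPM in IR+NMN, 23.4, 21.1 and 16.7 TPM in IR, and 3.40, 6.06 and 3.30 TPM in Sham. Its row 1 held 29.9 ± 5.21 TPM in IR+NMN, 22.3 ± 3.38 TPM in IR and 16.8 ± 3.17 TPM in Sham (SD, n = 3 each). The ratio of mean TPM of IR over Sham was thus 4.80 for row 3 and 1.32 for row 1. Row 1 supplied 34.1% of C1qb in IR and 55.2% in Sham. Taking the row with the highest mean in place of the sum left C1qb with a change of 0.39 and a limma adjusted p of 0.215 between IR and Sham. The sources used here do not say what a row stands for. In C1qa a single row held 96.2% to 97.2% of the gene in every group, and in C1qc the 3 rows above 1 TPM all rose in mean, by 1.94 to 2.62 times.

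**Figure D2:**
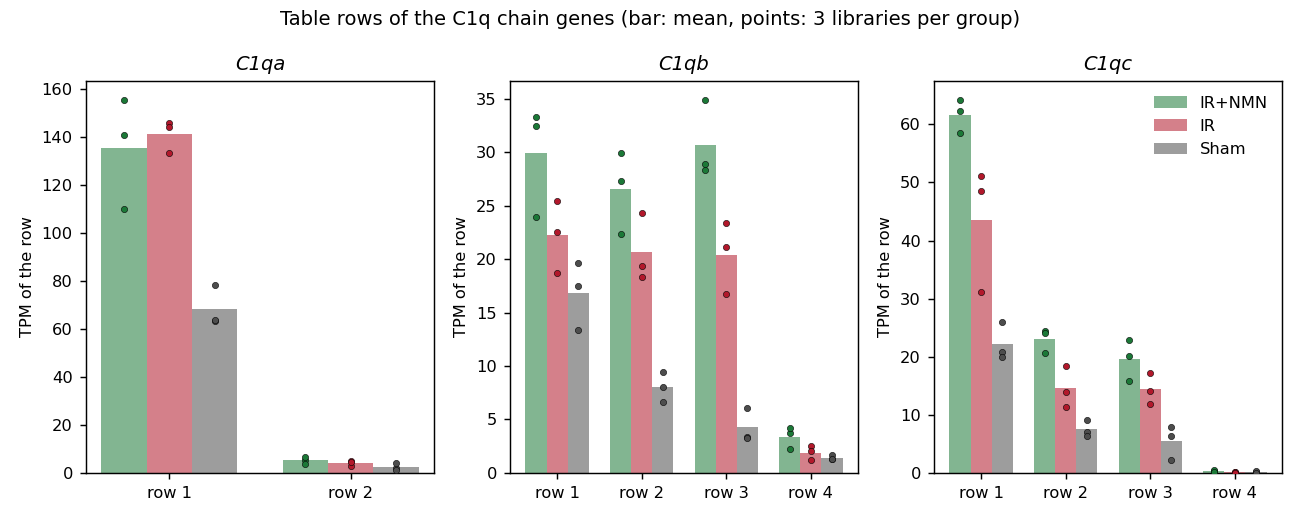
TPM (y axis) of each table row (x axis) of C1qa, C1qb and C1qc. Bars are means and points are the 3 libraries of IR+NMN, IR and Sham. Row 3 of C1qb averages 30.7 TPM in IR+NMN, 20.4 TPM in IR and 4.25 TPM in Sham.

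Between IR+NMN and IR the C1q chains were not called. C1qa changed by -0.060 on the log2 scale (95% interval -0.39 to 0.27, limma adjusted p = 0.979). The intervals of C1qb (0.47, 0.14 to 0.79, limma adjusted p = 0.156) and C1qc (0.53, 0.16 to 0.89, limma adjusted p = 0.149) lay above 0 before adjustment over all genes. C1qa made up 42.0%, 43.9% and 39.1% of the summed C1q chain TPM in IR+NMN, 49.4%, 51.0% and 53.8% in IR, and 49.7%, 54.5% and 51.4% in Sham. The share of the A chain was thus lower in all 3 IR+NMN libraries than in the 6 others, with no test made of it.

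C1r and C1s, the proteases of the C1 complex, are neighbours on rat chromosome 4. C1r had 16.6, 14.3 and 14.1 TPM in IR+NMN, 7.06, 4.60 and 6.11 TPM in IR and 5.87, 5.01 and 9.67 TPM in Sham. C1s had 11.5, 9.80 and 12.7 TPM in IR+NMN, 4.58, 3.48 and 2.98 TPM in IR and 4.58, 2.92 and 4.59 TPM in Sham. For both proteases every IR+NMN library lay above every other library, and IR and Sham overlapped. Of all tested genes, 13.7% had every IR+NMN library above every IR library and 13% above every Sham library. The share above both groups was not counted. Between IR+NMN and IR C1r changed by 1.22 (SE 0.23, limma adjusted p = 0.0297) and C1s by 1.40 (SE 0.20, limma adjusted p = 0.0183).

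C3, the protein cleaved at the centre of the cascade, had 20.1, 27.9 and 35.9 TPM in IR+NMN, 7.71, 6.93 and 12.5 TPM in IR, and 9.01, 12.6 and 8.62 TPM in Sham. The IR+NMN libraries again stood apart from the rest, with a log2 change against IR of 1.53 (SE 0.26, limma adjusted p = 0.0252). Its 4 rows were of similar size, each holding 18.7% to 31.9% of the gene in IR+NMN, and the highest row alone was not called (limma adjusted p = 0.317).

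Serping1, the C1 inhibitor, showed the largest change of the 7 genes between IR+NMN and IR. It had 19.6, 17.9 and 24.2 TPM in IR+NMN, 6.93, 3.36 and 1.62 TPM in IR, and 4.17, 3.31 and 5.50 TPM in Sham. All of its TPM came from a single row. It averaged 20.6 ± 3.23 TPM in IR+NMN and 3.97 ± 2.71 TPM in IR (SD, n = 3 each), a log2 change of 2.26 (SE 0.36, limma adjusted p = 0.0221).

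In this comparison 2.36% of all tested genes were called, 2.3% higher and 0.0589% lower, and 13.7% had every IR+NMN library above every IR library. Of the 7 listed genes 4 were called, and 6 did not overlap, C1qa being the exception. Their median log2 change was 1.22, against 0.041 for all genes. Leaving out IR+NMN 1, IR+NMN 3, IR 2 or IR 3 ended all 4 calls (limma adjusted p up to 0.150 for C1r, 0.113 for C1s, 0.131 for C3 and 0.119 for Serping1), and leaving out Sham 1 ended that of C1r. In each of the 4 fits without IR+NMN 1, IR+NMN 3, IR 2 or IR 3, limma called 0 of the 10180 genes, with 932 to 1333 at an unadjusted p under 0.05. The log2 changes stayed above 0 without each library, at 1.07 to 1.34 for C1r, 1.29 to 1.54 for C1s, 1.34 to 1.76 for C3 and 1.87 to 2.67 for Serping1. Quantile scaling and a fit to IR+NMN and IR alone also left 0 of the 4 calls, with 6 of the 7 genes at an unadjusted p under 0.05 in each.

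**Figure D3:**
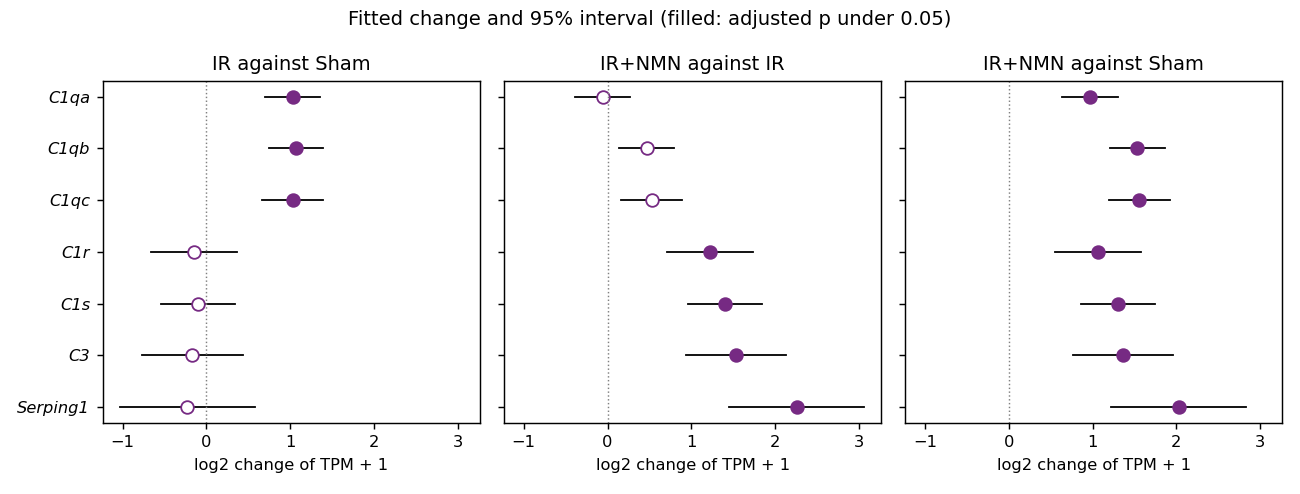
Log2 change of TPM + 1 (x axis) of each listed gene in the 3 comparisons, with 95% intervals from limma. Filled points passed an adjusted p of 0.05. The C1q chains are filled in IR against Sham, the other 4 genes in IR+NMN against IR, and all 7 in IR+NMN against Sham.

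Between IR and Sham the changes of these 4 genes were within the error. They were -0.15 for C1r (95% interval -0.67 to 0.36), -0.098 for C1s (-0.54 to 0.34), -0.17 for C3 (-0.76 to 0.43) and -0.23 for Serping1 (-1.03 to 0.58), with limma adjusted p from 0.678 to 0.760. Their sign turned with quantile scaling, which set the median change of all genes near 0. The intervals leave room for changes of up to about 0.34 to 0.58 upwards.

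The promoters of C1r and C3 are shown as those of the 4 genes that RefSeq gave here, in the same form as the C1q windows. That of C1r lies at chr4:159098763-159099012 on the plus strand and that of C3 at chr9:2201340-2201589 on the minus strand, both in GRCr8.
C1r: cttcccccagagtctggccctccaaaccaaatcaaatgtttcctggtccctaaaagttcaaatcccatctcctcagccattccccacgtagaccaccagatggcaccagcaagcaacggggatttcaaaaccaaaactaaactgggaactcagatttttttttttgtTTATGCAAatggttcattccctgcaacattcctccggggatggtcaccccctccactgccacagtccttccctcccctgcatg
C3: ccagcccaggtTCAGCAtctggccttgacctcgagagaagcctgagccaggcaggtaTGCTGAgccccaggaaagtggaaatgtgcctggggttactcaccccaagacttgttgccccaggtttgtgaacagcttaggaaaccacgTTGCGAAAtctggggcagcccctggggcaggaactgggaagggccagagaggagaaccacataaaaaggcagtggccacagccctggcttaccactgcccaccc
Each held 1 match to the C/EBP pattern, 83 to 76 bases before the start of C1r on the opposite strand and 104 to 97 bases before the start of C3. C3 also had 2 matches to the Maf half-site, which both C1q windows held, and C1r had none in this window. Windows of C1qc, C1s and Serping1 were not used here.

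Against Sham, IR+NMN was higher in all 7 genes, where 10.3% of all tested genes were called, 4.21% higher and 6.13% lower, and 13% had every IR+NMN library above every Sham library. The log2 changes ran from 0.97 for C1qa to 2.03 for Serping1, with a median of 1.37, against -0.14 for all genes. C1qb (1.53, SE 0.14, limma adjusted p = 0.00109) and C1qc (1.56, SE 0.16, limma adjusted p = 0.00203) had the smallest p-values. The calls of the C1q chains and C1s held without each single library. C1r lost its call without Sham 1, Sham 2, IR+NMN 1 or IR+NMN 3, C3 without Sham 3 or IR+NMN 3 and Serping1 without Sham 2 or IR+NMN 3, with limma adjusted p up to 0.0896, 0.0717 and 0.0603. The highest row of C3 alone was not called here either (limma adjusted p = 0.164), and the ribosomal covariate ended the call of C1r (0.0920). This comparison shares its libraries with both others.

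Ratios of TPM describe the balance of transcripts of the recognition protein, proteases and inhibitor, and protein was not measured. They rest on low values, since C1s was at most 4.59 TPM in IR and Sham. Serping1 was 1.62 to 6.93 TPM in IR and 3.31 to 5.50 TPM in Sham. The ratio of summed C1q chains to summed C1r and C1s was 12.4, 15.3 and 10.9 in IR+NMN, 26.2, 35.7 and 28.1 in IR and 12.5, 15.7 and 10.9 in Sham. The IR libraries thus had more C1q per protease transcript than any other library, and IR+NMN overlapped Sham at higher levels of both. The ratio of Serping1 to summed C1r and C1s was 0.700, 0.746 and 0.905 in IR+NMN, 0.595, 0.415 and 0.178 in IR, and 0.399, 0.418 and 0.386 in Sham. All 3 IR+NMN libraries were above the 6 others in it. C1r over C1s was 1.34 ± 0.198 in IR+NMN, 1.64 ± 0.372 in IR and 1.70 ± 0.412 in Sham (SD, n = 3 each), with overlapping values. These ratios are descriptions and were not tested.

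Across the 9 libraries the log2 levels of C1qb and C1qc ran most closely together (Pearson r = 0.982), followed by C1s and Serping1 (0.975). The lowest r among the pairs was 0.252, for C1qa and C3. Among the other tested genes, the highest r with C1qa was that of the interferon-induced gene Ifi27 (0.964), followed by Hnrnpc and Atp6v0e1. Rexo4 and Plac8 were among the 3 highest for both C1qb (with Fabp4) and C1qc (with Tmco1). For C1r they were Spata6, Haus8 and Cdca7, for C1s the matrix protease gene Mmp19 (0.982) with Ppan and Sp140, and for C3 Calu (0.949) with Ccdc103 and Rab8a. For Serping1 they were Ehd2 (0.993), Eva1b and Cp. Cp, the gene of the copper-carrying plasma protein ceruloplasmin, is also on the list of reactive astrocyte markers described below. Such r values rest on differences between 3 groups as much as on single libraries and are given as a description.

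Of 47 other complement genes listed by role, 40 were in the table and 28 were tested. Between IR and Sham limma called 0 of them higher and 3 lower, between IR+NMN and IR 3 higher and 0 lower, and between IR+NMN and Sham 2 higher and 4 lower. Over all tested genes the shares called higher and lower were 1.14% and 5.26%, 2.3% and 0.0589%, and 4.21% and 6.13% in these comparisons. At an unadjusted p under 0.05 limma had 1 higher between IR and Sham. Lower there were 4 regulators, 2 receptors, 2 alternative, 1 terminal and 1 lectin gene. Between IR+NMN and IR it had 3 regulators and 5 receptors higher and 0 genes lower. The median log2 changes in the 3 comparisons were -0.33, 0.14 and -0.044, against -0.21, 0.041 and -0.14 for all genes. Of the classical pathway, the protease gene C2 averaged 7.40 ± 0.987 TPM in IR+NMN, 7.23 ± 1.07 TPM in IR and 5.46 ± 0.622 TPM in Sham, with no call. C4a, whose near-identical copy C4b could share its reads, averaged 5.94 ± 3.29, 4.15 ± 1.46 and 5.42 ± 1.42 TPM in these groups and was not called either.

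In the lectin pathway limma called 0 of 5 tested genes in any comparison with all libraries. At an unadjusted p under 0.05 there were 2 (Masp1 and Masp2) between IR and Sham and 0 in the other comparisons. Without IR 1 it called 1 higher in IR against Sham, and 1 lower in IR+NMN against Sham without Sham 1. Without IR 1 and IR+NMN 2 together it called 1 higher in IR against Sham and 1 lower in IR+NMN against IR. Masp1, a protease of that pathway and its most abundant gene here, had 42.0, 51.4 and 38.7 TPM in IR+NMN, 42.4, 61.0 and 67.6 TPM in IR, and 34.4, 39.2 and 38.8 TPM in Sham. All IR libraries lay above all Sham libraries in Masp1, as in 7.58% of all tested genes. Its log2 change was 0.57 (SE 0.18, limma adjusted p = 0.0877), with no call. Its relative Masp2 averaged 5.64 ± 2.84 TPM in IR+NMN, 4.07 ± 0.451 TPM in IR and 8.69 ± 3.55 TPM in Sham. The mannose-binding lectin gene Mbl1 was listed at 0 in every library and Mbl2 stayed under the filter.

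Of 3 tested alternative and 2 tested terminal pathway genes, 1 of each was called, lower in both comparisons with Sham. Calls over all tested genes also leaned lower against Sham (5.26% lower and 1.14% higher in IR, 6.13% and 4.21% in IR+NMN). Cfp, which encodes properdin, a protein that stabilises the alternative convertase, averaged 4.56 ± 0.951 TPM in IR+NMN, 5.03 ± 0.539 TPM in IR and 10.1 ± 0.834 TPM in Sham. It fell by 0.89 in IR against Sham (SE 0.16, limma adjusted p = 0.0207), a call ended by leaving out IR 2, IR 3 or any of the Sham libraries and by quantile or median-of-ratios scaling (limma adjusted p up to 0.0859), and by 1.01 in IR+NMN against Sham (limma adjusted p = 0.00761). C8g, a chain of the membrane attack complex, had 2.35, 2.51 and 2.42 TPM in IR+NMN, 2.90, 2.49 and 1.64 TPM in IR and 7.56, 7.41 and 7.19 TPM in Sham, and fell by 1.35 in IR (limma adjusted p = 0.00436) and by 1.29 in IR+NMN (limma adjusted p = 0.00309) against Sham on the log2 scale. C8a, C8b, C6 and C9 stayed under the filter.

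Among regulators Clu (clusterin, an inhibitor of the membrane attack complex) was the most abundant, at 1269 ± 157 TPM in IR+NMN, 941 ± 151 TPM in IR and 969 ± 151 TPM in Sham, with no call. Sez6, a neuronal membrane protein with complement-control domains, averaged 73.6 ± 8.08 TPM in IR+NMN, 72.2 ± 11.6 TPM in IR and 132 ± 1.66 TPM in Sham. It fell by 0.88 in IR against Sham (limma adjusted p = 0.0124, up to 0.0677 without Sham 2, IR 2 or IR 3) and by 0.84 in IR+NMN against Sham (limma adjusted p = 0.00761). Vtn, the gene of vitronectin, was lower in IR+NMN than in Sham (-1.41, limma adjusted p = 0.0485), a call that 8 of the 9 fits without a library did not make.

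The genes called higher in IR+NMN against IR were 3 of the 6 tested receptor genes. Itgam and Itgb2 encode the chains of complement receptor CR3, which binds a fragment of C3. Itgam had 20.7, 17.8 and 26.2 TPM in IR+NMN, 8.10, 3.02 and 2.52 TPM in IR and 2.61, 3.89 and 2.78 TPM in Sham, a log2 change of 2.14 against IR (SE 0.34, limma adjusted p = 0.0216). Itgb2 changed by 1.68 (SE 0.21, limma adjusted p = 0.0181) and Cd93, once named as a receptor of C1q, by 0.82 (SE 0.17, limma adjusted p = 0.0413). As with the 4 listed genes, leaving out IR+NMN 1, IR+NMN 3, IR 2 or IR 3 ended the calls of Itgam and Itgb2 (limma adjusted p up to 0.119 and 0.108). That of Cd93 was not made in any of the 9 fits that left out a library (up to 0.205). C3ar1 and C5ar1, the receptors of the released fragments of C3 and C5, were not called. At an unadjusted p under 0.05, 5 of the 6 tested receptor genes were higher in IR+NMN than in IR and 0 lower. Their median log2 change was 0.72.

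**Figure D4:**
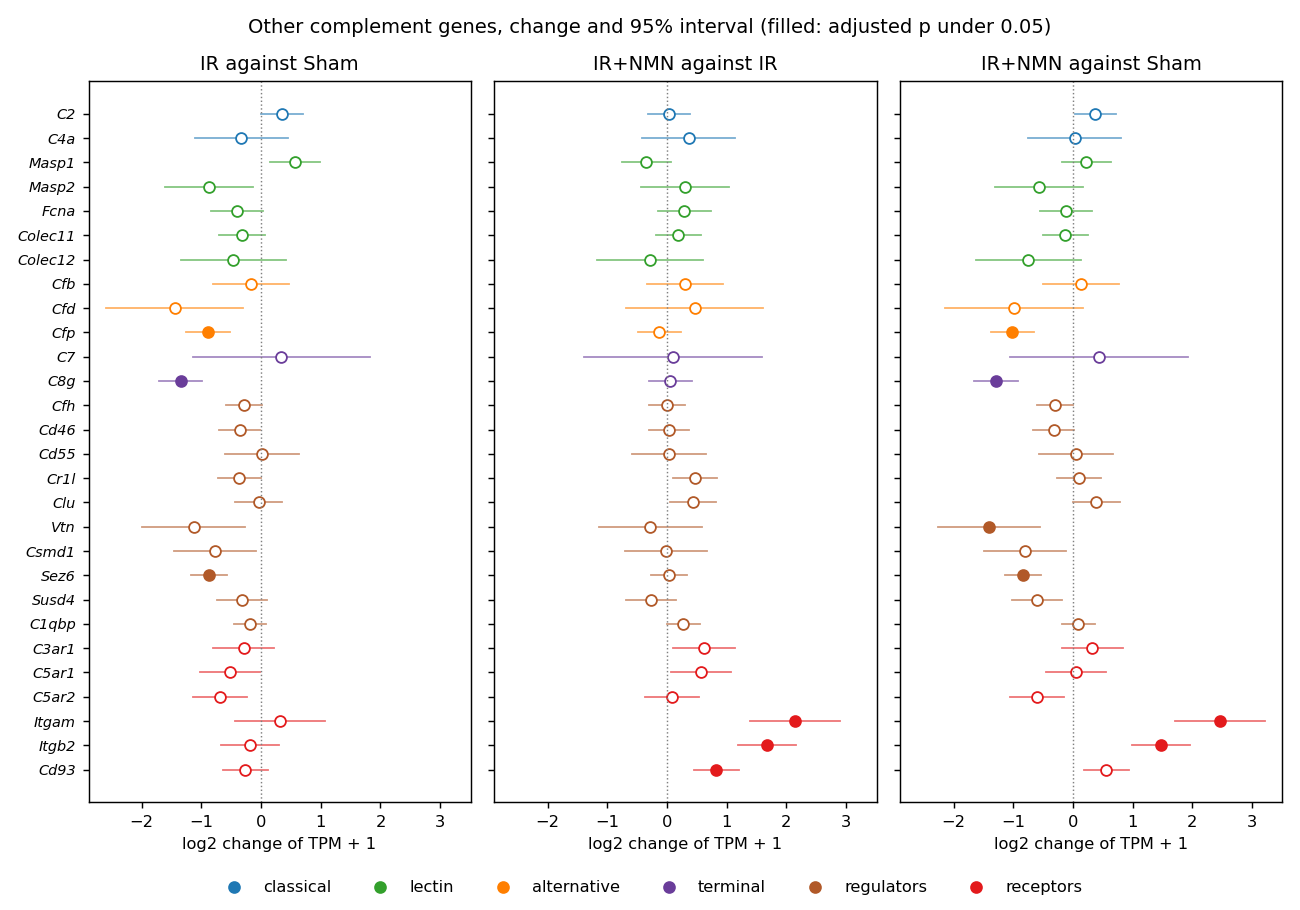
Log2 change of TPM + 1 (x axis) of the 28 tested complement genes outside the 7, coloured by role, with 95% intervals from limma. Filled points passed an adjusted p of 0.05. In IR+NMN against IR the filled points are Itgam, Itgb2 and Cd93.

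Bulk tissue cannot tell fewer cells of a type from less RNA per cell, so marker lists are given beside these results. The 10 microglial markers, all tested and none at 0 throughout, summed to 220 to 287 TPM in IR+NMN, 264 to 279 TPM in IR and 304 to 334 TPM in Sham. The C1q chains summed to 348, 369 and 291 TPM in IR+NMN, 305, 288 and 256 TPM in IR and 131, 124 and 155 TPM in Sham. C1q was thus high in the libraries where the summed microglial markers were lower than in Sham. Of the 10 markers limma called 0 in IR against Sham (4 lower and 0 higher at an unadjusted p under 0.05). In IR+NMN against Sham it called 5 lower (P2ry12, Tmem119, P2ry13, Gpr34 and Trem2), where 6.13% of all tested genes were called lower. Without IR+NMN 1, IR+NMN 3, Sham 2 or Sham 3 that count of markers was 2. The ribosomal covariate ended the calls of Tmem119 (limma adjusted p = 0.0699), P2ry13 (0.0573) and Gpr34 (0.0647). Quantile scaling ended those of Tmem119 (limma adjusted p = 0.0823) and Trem2 (0.0505). Between IR+NMN and IR limma called 0 of the 10 with all libraries (5 lower and 0 higher at an unadjusted p under 0.05), and 5 lower without IR+NMN 2. The purine receptor gene P2ry12, whose call against Sham held without each library, stood at 6.38, 13.1 and 7.48 TPM in IR+NMN, 14.5, 23.4 and 24.1 TPM in IR and 34.4, 33.3 and 36.4 TPM in Sham. Csf1r, the receptor microglia need to survive, averaged 76.2 ± 9.40 TPM in IR+NMN, 69.6 ± 4.03 TPM in IR and 83.9 ± 6.53 TPM in Sham, with no call. Aif1, a calcium-binding protein of microglia and macrophages, differed the other way, at 75.1, 55.6 and 46.5 TPM in IR+NMN and 38.7, 42.4 and 47.9 TPM in Sham (0.43, limma adjusted p = 0.149).

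Markers of reactive astrocytes moved with C1r, C1s, C3 and Serping1. Of 9 tested, 7 were called higher in IR+NMN against IR, where 2.3% of all tested genes were. Between IR and Sham 1 of the 9 was called, lower (Steap4, limma adjusted p = 0.0400, up to 0.148 without a single library). The list summed to 425, 163 and 468 TPM in IR+NMN, 57.4, 40.2 and 26.2 TPM in IR and 46.8, 38.1 and 90.3 TPM in Sham. Leaving out IR+NMN 1, IR+NMN 3, IR 2 or IR 3 left 0 of the 7 calls. Without Sham 1, Sham 2, Sham 3 or IR 1 the count was 4, 5, 6 and 6. Of 3 tested macrophage markers 1 was called between IR+NMN and IR. The scavenger receptor gene Msr1 had 18.6, 3.57 and 17.3 TPM in IR+NMN and at most 0.395 TPM in every other library (3.32 against IR, limma adjusted p = 0.0214, up to 0.113 when the same 4 libraries were left out in turn). Msr1 passed the filter on low values only through the IR+NMN libraries. Its entry into the test thus depended on the group where it was high, and its call is a description only. The lysozyme gene Lyz2 (0.49, limma adjusted p = 0.808) and F13a1 (0.056, limma adjusted p = 0.990) overlapped between IR+NMN and IR and were not called. Cd163, Mrc1 and 3 other macrophage markers had no row under their symbols, so the list rests on 3 of its 8 genes. IR+NMN 2 was the lowest of its group in the reactive astrocyte sum and in Msr1, but not in C3, C1r or the C1q chains, and its C1s and Serping1 were the lowest of the 3 while still above every IR and Sham library. The part of these cells in the complement values was not tested.

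**Figure D5:**
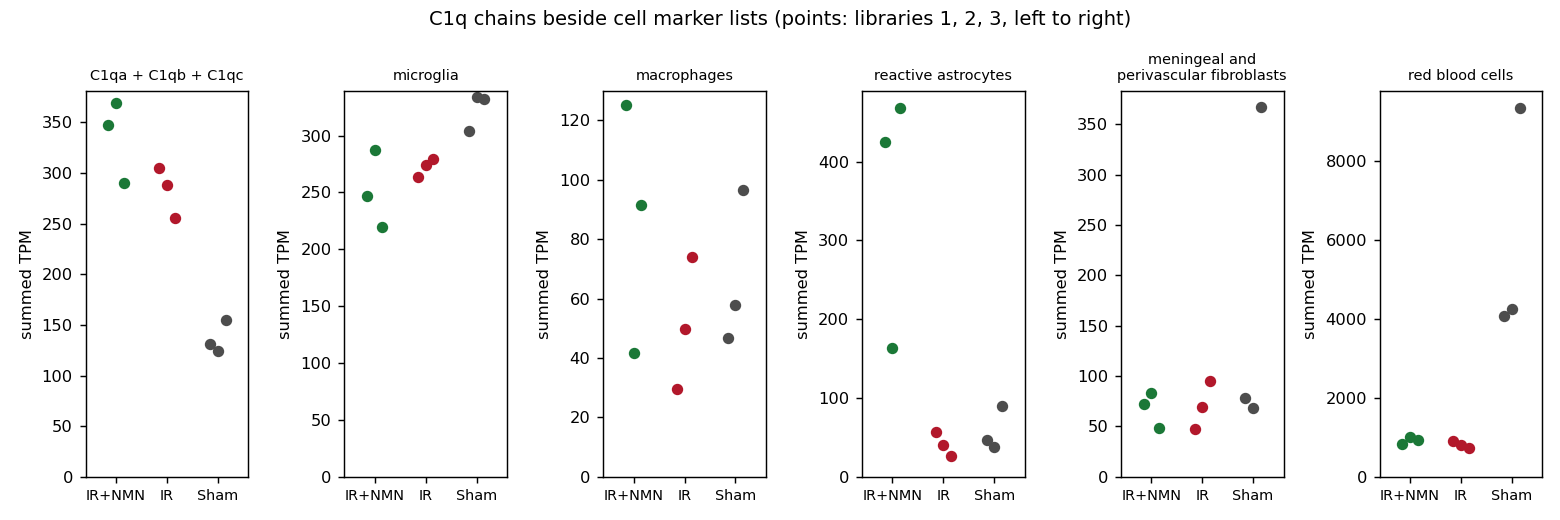
Summed TPM (y axes, from 0) of the C1q chain genes and of 5 cell marker lists in each library, by group (x axes). C1q is lowest in Sham, whereas the microglial list is highest there, at 304 to 334 TPM, and the reactive astrocyte list is highest in IR+NMN, at 163 to 468 TPM.

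Fibroblast markers of meninges and vessels, cells that can also make C1r, C1s and Serping1, summed to 48.9 to 83.4 TPM in IR+NMN, 47.5 to 95.4 TPM in IR and 68.5 to 367 TPM in Sham, where the highest value was that of Sham 3. Neutrophil markers summed to 8.02 to 11.9 TPM in IR+NMN, 5.41 to 10.9 TPM in IR and 7.11 to 11.8 TPM in Sham. Of 3 tested, Hp, the haptoglobin gene, was lower than in Sham in both comparisons, at 1.22 TPM on average in IR+NMN, 0.350 TPM in IR and 3.60 TPM in Sham. Its change was -1.76 in IR (limma adjusted p = 0.00280) and -1.04 in IR+NMN (limma adjusted p = 0.0130, up to 0.0626 without Sham 2 or IR+NMN 3), and its highest row alone was not called in either. Red blood cell genes summed to 825 to 1011 TPM in IR+NMN, 732 to 900.2 TPM in IR and 4079 to 9336 TPM in Sham, with 5 of 6 tested genes lower in both comparisons with Sham. Liver and plasma protein genes, of the organ that supplies most complement in blood, summed to 2.02 to 3.15 TPM in IR+NMN, 4.15 to 16.3 TPM in IR and 2.14 to 6.91 TPM in Sham, with 2 of 7 at 0 in every library. The 10 astrocyte markers summed to 6167 to 8662 TPM in IR+NMN, 5380 to 7098 TPM in IR and 3838 to 4955 TPM in Sham. The place of IR+NMN at the top of this order came from the intermediate filament gene Gfap alone. Gfap had 4121 to 4634 TPM in IR+NMN, 666 to 2645 TPM in IR and 394 to 801 TPM in Sham, and was the 1 gene of the list called, in IR+NMN against Sham (3.01, limma adjusted p = 0.00605). The other 9 summed to 2047, 4028 and 2044 TPM in IR+NMN, 4044 to 4726 TPM in IR and 3444 to 4457 TPM in Sham, and the median log2 change of the list was -0.58 against IR and -0.59 against Sham. Without IR+NMN 2, 4 and 5 of the list were called lower in IR+NMN in these comparisons. The remaining lists, in the order IR+NMN, IR and Sham, spanned 89.3 to 128, 90.8 to 111 and 131 to 181 TPM for endothelium, 2785 to 3291, 2758 to 4361 and 3973 to 4794 TPM for neurons, 3464 to 8783, 3961 to 7483 and 5692 to 12479 TPM for oligodendrocytes, and 5.60 to 8.29, 2.11 to 3.82 and 26.7 to 46.8 TPM for choroid plexus.

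Libraries differed in ways the groups did not explain. IR 1 and IR+NMN 2 lay on the Sham side of the first principal component, which held 42.7% of the variance, and the ribosomal protein share of TPM was 7.75% to 12.2% in IR+NMN, 6.29% to 9.24% in IR and 5.82% to 7.30% in Sham. Without IR 1 and IR+NMN 2 together, an alternative added after the data were seen, 3 of the 7 genes were called in IR against Sham, 3 in IR+NMN against IR (C3 at a limma adjusted p of 0.0679) and 7 in IR+NMN against Sham. With the ribosomal share as a covariate these counts were 3, 4 and 6. The labels name no batch. Depth cannot be read from TPM and is unknown for all libraries.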

How the data were processed

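The deposited table held TPM values for 9 libraries, each summing to 1000000 over 131003 rows, and the unit is read from that sum. Per the labels' protocols, total RNA was amplified with Smart-Seq2, with RNA integrity numbers accepted down to 5.8. Per the submitters' processing notes, STAR, Cufflinks and the human build hg38 were named, although the samples are from rat. The sources used here do not give versions, annotation or strand handling. How those steps bear on the TPM of a gene was not tested. Rows without a symbol stayed out of the tests, and 27683 rows with 1 of 12609 symbols were summed by symbol, where a RefSeq gene table of GRCr8 held 12314.

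The 10180 genes that reached 1 TPM in 3 or more libraries were fitted as log2(TPM + 1) with 1 mean per group in limma 3.58.1 (R 4.3.3), with an intensity trend and robust moderation, and 6 residual degrees of freedom. Fold changes on this scale understate those of low genes. P-values were two-sided and adjusted over all tested genes by the Benjamini-Hochberg method at 0.05. The fit was tested on simulated data with independent errors, which cannot show how far calls depend on single libraries. The alternatives changed the pseudocount, filter, scaling, row choice, libraries, trend, replicate block and ribosomal covariate. The text names the 7 genes, other complement genes past the threshold or most abundant in their role, defining genes of marker lists, and the 3 genes closest to each member by Pearson r. Members, lists, motifs and tests were chosen with earlier results of these data known. Promoter sequences are from RefSeq, which gave 4 of the 7.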

Additional observations from a re-analysis of the deposited data

How the results depend on the processing

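With 3 libraries per group, calls depended on single libraries. Counts of the 7 genes called ran from 1 to 3 in IR against Sham, from 0 to 4 in IR+NMN against IR and from 4 to 7 in IR+NMN against Sham in fits without 1 library, and counts of all genes called from 74 to 1138 (651 with all libraries), 0 to 496 (240) and 276 to 2168 (1053). For IR+NMN against IR, quantile scaling left 0 of the 7 and 7 of all genes, median-of-ratios scaling 2 and 73, the 2 groups alone 0 and 2 (6 of the 7 at an unadjusted limma p under 0.05 where 0 were called), and the ribosomal covariate called 465 genes. Against Sham, the covariate called 381 and the 2 groups alone 620 genes in IR+NMN. Without IR 1 and IR+NMN 2, 2514, 533 and 2989 genes were called in the 3 comparisons.

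Replicate numbers did not pair the libraries, since correlations of same-numbered deviations ran from -0.57 to 0.49. A replicate block left 100, 33 and 499 genes called and 1 of the 7 in IR+NMN against IR (C1s), where 4 were called without it. In IR against Sham it left 2 of the 7 in place of 3, ending the calls of C1qc (limma adjusted p = 0.0569), Cfp (0.0611) and Sez6 (0.0546), and in IR+NMN against IR also those of Itgam (0.0561) and Cd93 (0.108). All 7 were called against Sham in IR+NMN.

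Signs turned in values that were not called. In IR against Sham, quantile scaling gave 0.12 for C1r, 0.21 for C1s, 0.11 for C3 and 0.058 for Serping1, and median-of-ratios scaling 0.034, 0.073 and 0.035 for the first 3. Fits without 1 library spanned -0.32 to 0.092 for C1r, -0.27 to 0.012 for C1s and -0.64 to 0.16 for Serping1, and for C1qa in IR+NMN against IR -0.17 to 0.085. Both scalings moved the median change of all genes in IR against Sham from -0.21 to near 0. The cause of the other changes was not tested. The unknown depth limits the reading of genes under about 5 TPM.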
